A study of Mus musculus with 6 samples.

Results

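Myd88, Ppp6c, Crip2, Samm50, Ube2q2, Arpc5, Jpt1 and Krt19 are 8 of the 19938 genes measured in mouse embryonic stem cells after transfection with either of 2 siRNAs that target p/CIP. This protein, encoded by Ncoa3, is a coactivator that nuclear receptors recruit to switch on their target genes. The 8 genes were chosen by their measured values on these same arrays, because their levels differed between siRNA 1 and siRNA 2 although Ncoa3 was lowered equally by both. The difference between the siRNAs is therefore given for them as a description, with no test. The same holds for each siRNA set against control, since those comparisons use the same siRNA arrays.

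All cells were of the E14 line, grown attached to plates in culture, and total RNA was hybridised to 6 expression arrays. The groups were cells given p/CIP siRNA 1, cells given p/CIP siRNA 2, and control cells given a pool of non-specific siRNAs, with 2 arrays in each group. All 3 groups had thus received siRNA, and untransfected cells are not analysed here. The labels give replicate numbers but do not say whether a replicate is a culture of its own, and the p-values below therefore measure no more than the spread of these samples, possibly a technical one.

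An siRNA is a short RNA duplex of which 1 strand is loaded into an Argonaute protein and guides it to messenger RNAs. A fully matched messenger is cleaved, and messengers matched only to the first bases of the guide, its seed, can be lowered as well. For this reason RNA interference studies commonly use more than 1 siRNA per target: an effect of losing the target should appear with each of them, whereas a change seen with a single siRNA may not depend on the target. By their textbook roles the 8 genes belong to different pathways. Myd88 is the adaptor that links Toll-like and interleukin-1 receptors to their kinases, Ppp6c is the catalytic subunit of protein phosphatase 6, and Crip2 is a small protein with LIM domains. Samm50 is the core subunit of the machinery that inserts barrel proteins into the mitochondrial outer membrane. Ube2q2 is a ubiquitin-conjugating enzyme, Arpc5 a subunit of the Arp2/3 complex that nucleates branched actin, Jpt1 a protein associated with microtubules, and Krt19 a keratin of simple epithelia.

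Levels are the deposited values, read as log2, so that a difference of 1 between groups means a level 2 times as high. Ncoa3 was 10.71 and 10.93 with siRNA 1, 10.71 and 10.92 with siRNA 2, and 12.33 and 12.28 in control cells. All 4 arrays of the p/CIP siRNAs lay far below both control arrays, and the siRNAs overlapped each other. Ncoa3 stood at 35.7% of its control level with siRNA 1 and at 35.6% with siRNA 2, and the difference between them was 0.00285 (SE 0.111, n = 2 arrays each). The mean of both siRNAs against control was -1.49 (SE 0.0964, limma adjusted p = 0.0287). Its size ran from -1.54 to -1.43 over 15 alternatives, but the call was lost in 6 of them, with limma adjusted p-values of 0.366 without moderation, 0.166 with all probe sets tested, 0.146 and 0.0969 without siRNA 2 replicate 1 or 2, and 0.62 and 0.248 without control replicate 1 or 2. In bulk RNA, fewer cells that carry a transcript and less of it per cell cannot be told apart, for Ncoa3 or for any gene below.

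Of the 8 genes, 7 had both siRNA 1 arrays below all the other 4 arrays, a pattern that 9.75% of all genes had. The remaining gene, Jpt1, had both siRNA 2 arrays below all the other 4, a pattern of 6.46% of all genes. Since this separation is what the genes were picked for, nothing is read from these shares. The values of each gene on each array follow, ordered by the roles of the proteins.

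**Figure D1:**
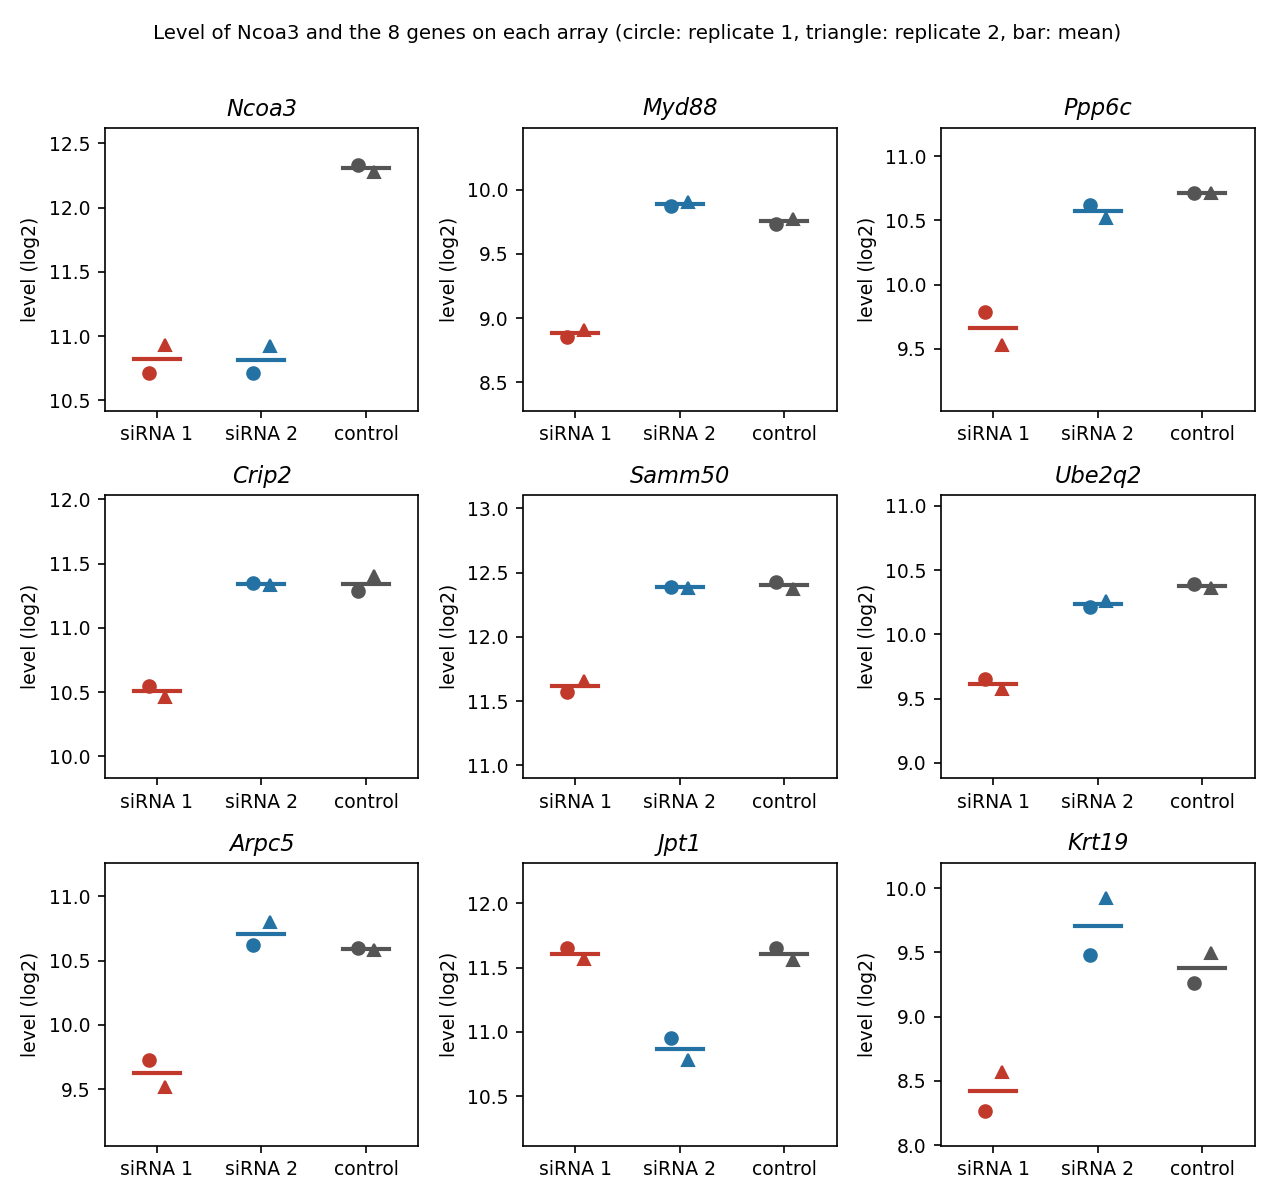
Level (log2) of Ncoa3 and of each of the 8 genes on the 6 arrays, grouped as siRNA 1, siRNA 2 and control. Circles are replicate 1, triangles replicate 2 and bars group means. All panels span the same number of log2 units, each around its own centre. Ncoa3 is low with both siRNAs, Jpt1 is low with siRNA 2 alone, and the other 7 genes have their siRNA 1 arrays below all others. For Ppp6c and Ube2q2 the siRNA 2 arrays also lie slightly below both controls.

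Myd88, the signalling adaptor, was 8.86 and 8.91 with siRNA 1, 9.87 and 9.90 with siRNA 2, and 9.73 and 9.77 in control cells. The siRNA 1 arrays were the lowest, and the siRNA 2 arrays lay slightly above both controls with no overlap. The level with siRNA 1 was 54.8% of control, a difference of -0.87 (SE 0.0766), while siRNA 2 differed from control by 0.14 (95% interval -0.0463 to 0.318). Between the siRNAs the difference, siRNA 1 minus siRNA 2, was -1.004, or 2.01-fold more transcript with siRNA 2. By size this was the difference of rank 7 among all genes, and relative to the spread between arrays it ranked 1.

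Ppp6c had 9.79 and 9.53 with siRNA 1, 10.62 and 10.52 with siRNA 2, and 10.71 on both control arrays. The siRNA 1 arrays were well below the rest, and the siRNA 2 arrays were just below the controls. It had the lowest level relative to control of the 8 genes: 48.3% with siRNA 1 (difference -1.05, SE 0.106), against 90.6% with siRNA 2 (difference -0.14, 95% interval -0.394 to 0.109). siRNA 1 minus siRNA 2 was -0.91 (SE 0.106, rank 12 by size).

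Ube2q2, which passes ubiquitin on to substrates together with a ligase, was 9.65 and 9.57 with siRNA 1, 10.21 and 10.26 with siRNA 2, and 10.39 and 10.36 in control cells. The order of the groups was the one of Ppp6c, with siRNA 2 a little under control and no overlap. With siRNA 1 it stood at 58.9% of control (difference -0.76, SE 0.0786), and siRNA 2 minus control was -0.14 (95% interval -0.331 to 0.0422). siRNA 1 minus siRNA 2 was -0.62 (SE 0.0786), the smallest of the 8 differences, at rank 48. Ube2q2 was the only one of these genes with a second probe set of its own, which read 9.42 and 9.34 with siRNA 1, 9.99 and 10.05 with siRNA 2, and 10.20 and 10.15 in control cells. On that probe set the difference between the siRNAs was -0.64, close to the first.

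Samm50 was 11.57 and 11.66 with siRNA 1, 12.39 and 12.38 with siRNA 2, and 12.43 and 12.37 in control cells. siRNA 1 stood apart at 58.0% of control (difference -0.79, SE 0.0791). The siRNA 2 arrays lay between the control arrays, with a difference of -0.0145 (95% interval -0.202 to 0.174). siRNA 1 minus siRNA 2 was -0.77 (rank 22).

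Crip2, the LIM domain protein, had 10.55 and 10.46 with siRNA 1, 11.35 and 11.33 with siRNA 2, and 11.29 and 11.40 in control cells. Again the siRNA 2 arrays fell between the controls and the siRNA 1 arrays below them. The level was 55.8% of control with siRNA 1 (difference -0.84, SE 0.0841), and siRNA 2 minus control was -0.00745 (95% interval -0.207 to 0.192). siRNA 1 minus siRNA 2 was -0.83 (rank 16).

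Arpc5, the actin nucleation subunit, had 9.73 and 9.52 with siRNA 1, 10.62 and 10.80 with siRNA 2, and 10.60 and 10.58 in control cells. Its siRNA 1 arrays were far below the rest, and its siRNA 2 arrays were both above the controls, the first of them narrowly. siRNA 1 gave 51.1% of control (difference -0.97, SE 0.104), and siRNA 2 minus control was 0.11 (95% interval -0.133 to 0.361). The siRNAs differed by -1.08, or 2.12-fold (rank 5).

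Krt19 was 8.27 and 8.57 with siRNA 1, 9.48 and 9.92 with siRNA 2, and 9.26 and 9.498 in control cells. It varied most between replicates, replicate 2 being the higher in all 3 groups, and its siRNA 2 and control arrays overlapped. siRNA 1 stood at 51.3% of control (difference -0.96, SE 0.174), and siRNA 2 minus control was 0.32 (95% interval -0.0923 to 0.736). With -1.29 (SE 0.174, 2.44-fold), it had the largest difference between the siRNAs of the 8 genes, at rank 3 by size, but only at rank 14 relative to the spread. Taken by replicate number, siRNA 1 minus siRNA 2 was -1.22 for replicate 1 and -1.35 for replicate 2.

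Jpt1 ran the other way. It was 11.65 and 11.57 with siRNA 1, 10.95 and 10.78 with siRNA 2, and 11.65 and 11.56 in control cells. The siRNA 1 and control arrays coincided, and both siRNA 2 arrays were below them. With siRNA 2 it stood at 60% of control (difference -0.74, SE 0.0924), while siRNA 1 minus control was 0.00845 (95% interval -0.211 to 0.228). siRNA 1 minus siRNA 2 was 0.75 (1.68-fold, rank 24).

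**Figure D2:**
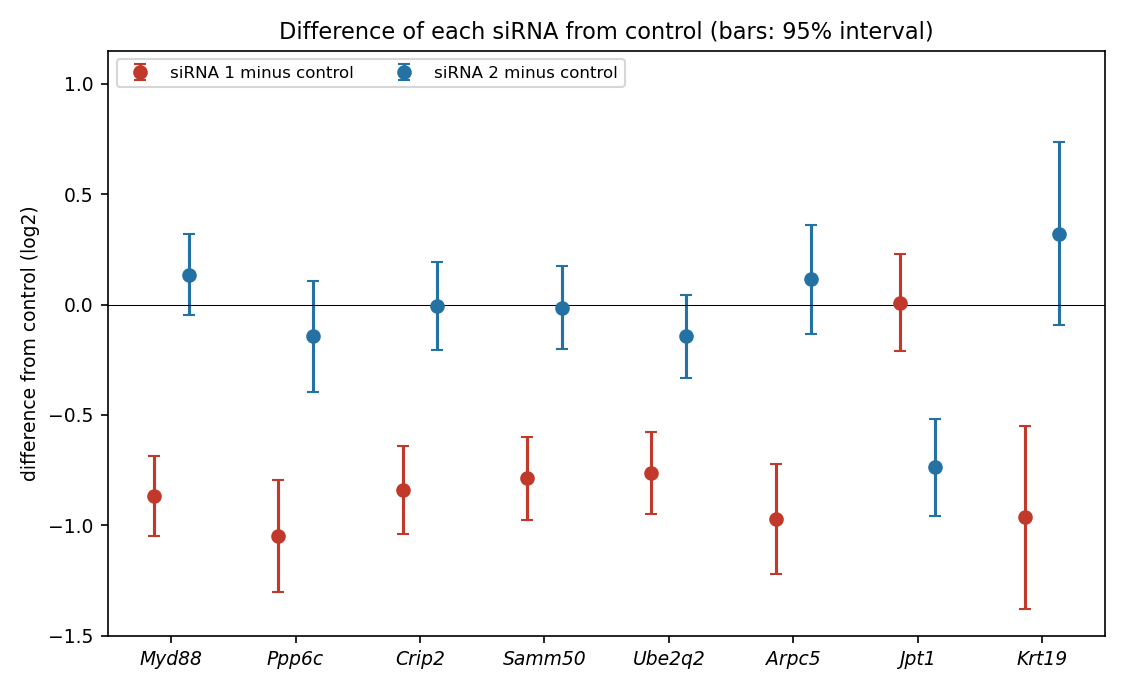
Difference from control (log2) with siRNA 1 and with siRNA 2 for each of the 8 genes, with 95% intervals from the limma fit (n = 2 arrays per group). With siRNA 1, 7 genes lie between -0.76 and -1.05 and Jpt1 at 0.00845; with siRNA 2, Jpt1 lies at -0.74 and the intervals of the other 7 include 0.

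With siRNA 1 set against control, 5 of the 8 genes (Myd88, Ppp6c, Crip2, Samm50 and Ube2q2) were among the 14 genes lower at an adjusted p under 0.05 (0.0702% of all genes), and 0 genes were called higher. With the replicate number as a block in the fit, 7 of the 8 were among 192 lower genes (0.963%). With siRNA 2 set against control, the fit called 0 genes (0%), and the block fit called 22 lower genes (0.11%), Jpt1 among them. Between the siRNAs the fit called 0 genes (0%), with a smallest adjusted p of 0.0851. Before adjustment, 670 genes were lower and 706 higher with siRNA 1 at a p under 0.05. The block fit called 15 genes there (0.0752%), of which 6 were Krt19, Myd88, Jpt1, Samm50, Ppp6c and Crip2. The choice of the 8 genes used these arrays, so the counts place them among all genes and support nothing.

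The mean of both siRNAs against control does not use the difference between the siRNAs, but its test is not independent of the choice. It uses the same arrays and the same spread between them, so its p-values for the 8 genes are a description. By limma, 0 of the 8 genes passed in it, with adjusted p-values between 0.134 (Ppp6c and Ube2q2) and 0.604 (Krt19), where 0.0702% of all genes were called. All 8 values were below 0, from -0.32 (SE 0.151) for Krt19 to -0.60 (SE 0.0918) for Ppp6c, and 7 of the 8 had an unadjusted p under 0.05, as 4.86% of all genes did in that direction. Their median was -0.41, beside 0.0065 over all genes. By arithmetic, a gene that is low with 1 siRNA and level with control under the other has a mean below 0, so these values do not show that both siRNAs lowered any of the genes. With the replicate block, Ppp6c alone passed (adjusted p = 0.0492), where 0.341% of all genes were called.

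**Figure D3:**
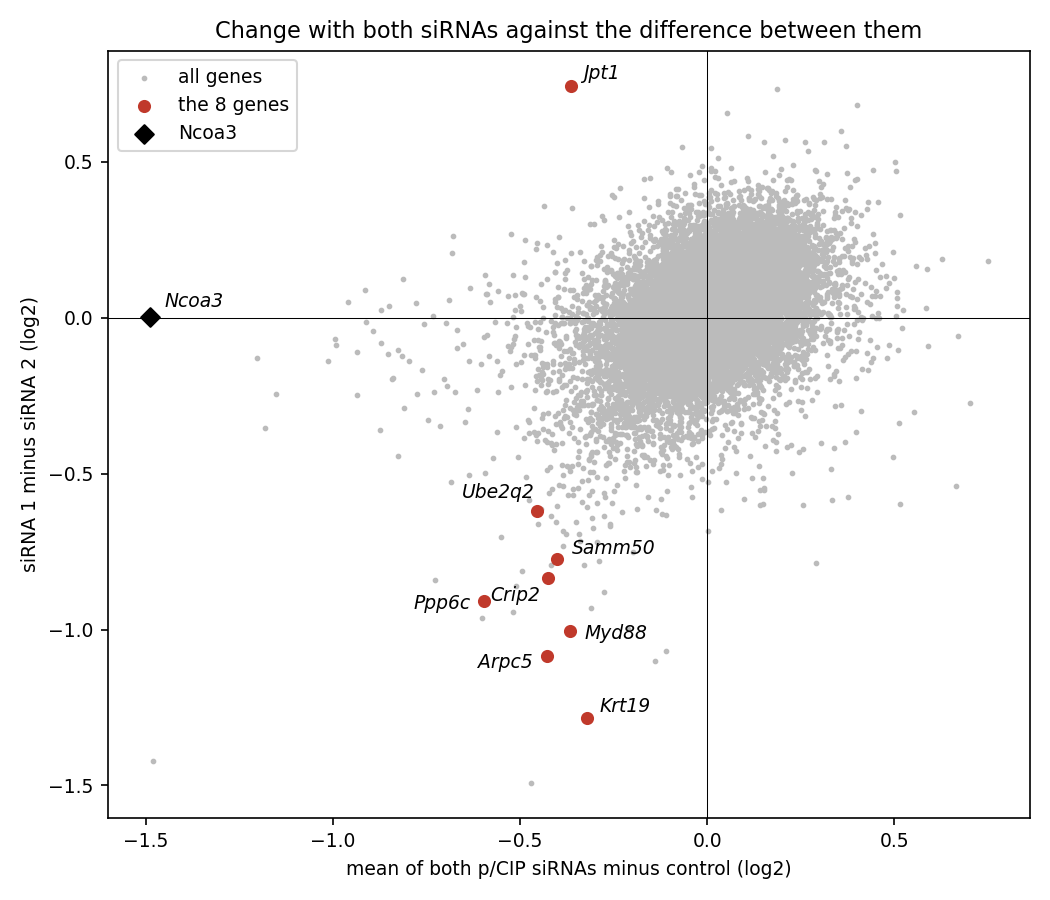
Each gene's mean difference of both p/CIP siRNAs from control (horizontal, log2) and its difference between siRNA 1 and siRNA 2 (vertical, log2); grey points are all genes, red points the 8 genes and the black diamond Ncoa3. Ncoa3 lies at -1.49 and 0.00285, 7 of the 8 genes lie below the cloud between -0.62 and -1.29 on the vertical axis, and Jpt1 lies above it at 0.75.

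The 8 genes are all within the 50 largest of the 19938 differences between the siRNAs, but they are not the whole of that range. Acta2 (-1.49, SE 0.351) and Gm5662 (-1.42, SE 0.328) had larger differences than any of them, with larger errors. Just above Ube2q2 in the ranking were Bex3, Ift74, Apobec2, Rras and Zfp345, with differences of -0.64 to -0.62, and just below it were Serpinb9, Cav1, Ppp4r2, Plac8 and Ubtd2, with -0.62 to -0.61. The weakest of the 8 is thus not set apart by a step from the genes around it. Both siRNA 1 arrays lay at least 0.4 below every other array for 38 genes, a gap chosen after the values were seen, and at least 0.4 above for 1 gene. For siRNA 2, 1 gene lay that far below, and it was Jpt1, whose gap was 0.608; 1 gene lay that far above. The gaps of the 7 genes low with siRNA 1 were between 0.554 (Ube2q2) and 0.86 (Arpc5).

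The genes whose levels followed each of the 8 most closely were named by Pearson's r over the 6 arrays among 963 genes that passed a minimum level and spread. These correlations rest on 3 groups of 2 arrays and mostly restate the group means, so they are descriptions. Pef1 was closest to Myd88 (r = 0.994) and Ryk to Samm50 (r = 0.994) and Crip2 (r = 0.992). Anapc5 and Dbt were closest to Ppp6c (r = 0.996 each), Ccdc127 to Ube2q2 (r = 0.994), Cyb5b to Arpc5 (r = 0.99) and Efemp1 to Krt19 (r = 0.989). Anapc5, a subunit of the anaphase-promoting complex, averaged 10.69 with siRNA 1, 11.38 with siRNA 2 and 11.42 in control cells. For Jpt1 the closest genes were Klhl42 (r = 0.976) and Map3k3 (r = 0.966), and only 2 genes exceeded r = 0.95, against 15 to 54 genes for the other 7. Klhl42 averaged 10.14 with siRNA 1, 9.69 with siRNA 2 and 10.07 in control cells, the order of Jpt1 at a smaller difference. Among themselves, the 7 genes low with siRNA 1 correlated at r of 0.84 (Ppp6c and Krt19) to 0.989 (Ppp6c and Ube2q2) over the 6 arrays, and with Jpt1 at r of -0.709 (Krt19) to -0.34 (Ube2q2). The genes were chosen by their siRNA 1 and siRNA 2 levels, which fixes much of these values.

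Close relatives of the 8 genes are given next. The 8 genes were chosen for a large difference between the siRNAs and the relatives and pathway genes were not, so a larger value in the 8 is set by that choice and is not compared. Arpc5l, the alternative form of the same Arp2/3 subunit, had 7.75 and 7.66 with siRNA 1, 7.80 and 7.60 with siRNA 2, and 7.86 and 7.75 in control cells. The groups overlapped, and siRNA 1 minus siRNA 2 was -0.00044 (95% interval -0.235 to 0.235). Ube2q1 differed by 0.015 (-0.162 to 0.193) and Jpt2 by -0.077 (-0.291 to 0.137). The catalytic subunits nearest to Ppp6c, Ppp4c and Ppp2ca, differed by -0.031 (-0.243 to 0.18) and -0.0076 (-0.207 to 0.192). None of these genes passed limma's test between the siRNAs, their adjusted p-values being 0.826 or higher.

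Krt8 and Krt18, the keratin partners that form filaments in simple epithelia, varied between replicates as Krt19 did, and had no separation by siRNA. Krt8 was 12.43 and 12.94 with siRNA 1, 12.51 and 12.99 with siRNA 2, and 12.39 and 12.69 in control cells. Replicate 2 was the higher array in every group, and the groups overlapped. siRNA 1 minus siRNA 2 was -0.061 for Krt8 (95% interval -0.585 to 0.462) and 0.035 for Krt18 (-0.388 to 0.459). Crip1, the relative of Crip2, had 10.12 and 10.10 with siRNA 1, 10.50 and 10.31 with siRNA 2, and 10.54 and 10.43 in control cells. Both siRNA 1 arrays were below the other 4, and the difference of -0.30 (95% interval -0.523 to -0.073) did not pass after adjustment (limma adjusted p = 0.674).

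The other genes of the pathways to which the 8 proteins belong were taken from lists written from general knowledge, with the 8 genes left out. Toll-like and interleukin-1 receptor signalling had 25 measured genes, of which 0 passed in any of the 4 comparisons. Their median difference, siRNA 1 minus siRNA 2, was 0.013, against 0.026 over all genes, and they ranged from -0.39 for Tlr3, a receptor for double-stranded RNA, to 0.27 for Tlr9, a receptor for unmethylated DNA. The 15 genes listed with Ppp6c were regulatory subunits, related phosphatases, the Aurora A kinase Aurka and its activator Tpx2. They ranged only from -0.10 for Tpx2 to 0.19 for Ankrd52, a regulatory subunit, with a median of -0.031, and 0 passed.

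Among 20 other genes of mitochondrial outer membrane import and of the inner membrane's contact sites, siRNA 1 minus siRNA 2 had a median of -0.064 and a range of -0.31 to 0.12, and 0 passed in any of the comparisons. The lowest was Chchd3, a contact site subunit that binds Samm50. Chchd3 was 11.10 and 10.94 with siRNA 1, 11.41 and 11.24 with siRNA 2, and 11.56 and 11.38 in control cells. The siRNA 1 arrays were the lowest, and siRNA 1 minus control was -0.45 (limma adjusted p = 0.222, and 0.0439 with the replicate block). Tomm5, a small subunit of the import pore, differed by -0.20 between the siRNAs and by -0.39 between siRNA 1 and control (limma adjusted p = 0.195).

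The 15 other subunits and activators of the Arp2/3 complex had a median difference between the siRNAs of 0.0065 and a range of -0.14 for Actr3, an actin-related subunit of the complex, to 0.22 for Wasl, its activator. The 29 other ubiquitin-conjugating enzymes had a median of -0.032 and ranged from -0.27 for Ube2d3 to 0.29 for Ube2ql1. The 11 other cysteine-rich and LIM-only proteins had a median of -0.15. In these 3 lists 0 genes passed in any comparison.

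Of 17 other keratins and desmosomal genes, 0 passed without the block, and siRNA 1 minus siRNA 2 had a median of 0.03, with Krt15 highest at 0.33 and Pkp2, a desmosomal plaque protein, lowest at -0.22. With the replicate block, Dsp and Krt17 passed in siRNA 1 against control, and Dsp also in siRNA 2 against control. Dsp, the plaque protein that anchors keratin filaments, was 10.68 and 10.89 with siRNA 1, 10.48 and 10.72 with siRNA 2, and 9.79 and 10.09 in control cells. It was higher on all 4 p/CIP siRNA arrays, by 0.84 with siRNA 1 (block adjusted p = 0.0183) and 0.66 with siRNA 2 (block adjusted p = 0.0484), whereas Krt19 was lower with siRNA 1 and overlapped control with siRNA 2. Krt17 was 0.55 higher than control with siRNA 1 (block adjusted p = 0.048).

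**Figure D4:**
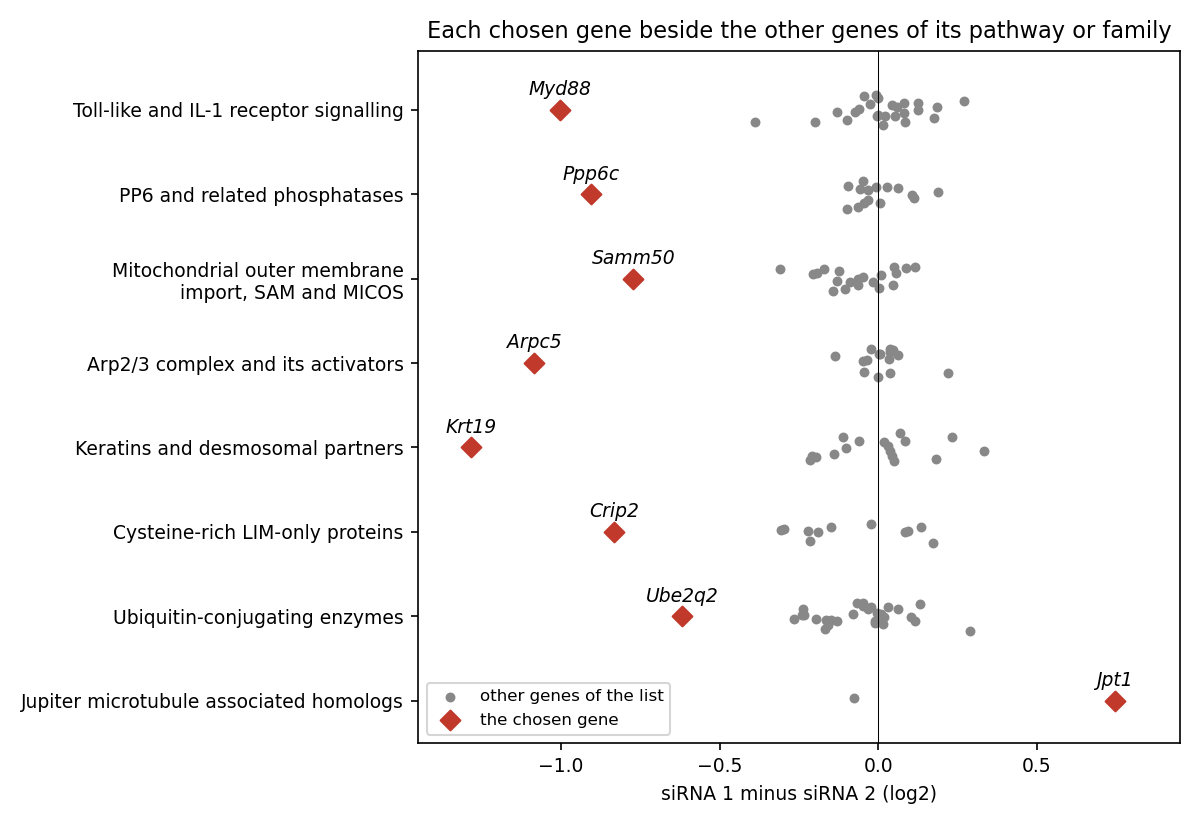
Difference between siRNA 1 and siRNA 2 (log2) of each of the 8 genes (red diamonds) and of the other measured genes of its pathway or family (grey points, moved up or down only to keep them apart). All grey points lie between -0.39 and 0.33, and the red diamonds lie outside that range because those genes were chosen for this difference.

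Lists of RNA silencing and of the interferon response were included because double-stranded RNA can set off both. Of 13 silencing genes 0 passed in any comparison. Ago1 was 0.24 lower and Dicer1 0.20 lower with siRNA 1 than with siRNA 2, and Ago4, of low level, was 0.31 higher. Ago3 differed by -0.31 (limma adjusted p-values of these genes 0.672 or higher). Of 19 interferon response genes 0 passed as well. Their median difference between the siRNAs was -0.096, with a range of -0.39 for Ifit2 to 0.19 for Irf7. Eif2ak2, the kinase activated by double-stranded RNA, was 7.89 and 7.81 with siRNA 1, 8.25 and 8.11 with siRNA 2, and 8.15 and 8.03 in control cells, and Ifit2 differed by -0.39 between the siRNAs (limma adjusted p = 0.584).

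Promoter sequences were compared as a property that the choice of the genes had not used. RefSeq windows on GRCm38.p6, from 250 bases before to 50 bases after the annotated start, were found for 7 of the 8 genes, in 9 windows, and Krt19 was not matched. The windows below are of Myd88 and Arpc5, whose siRNAs lay on either side of control, of Samm50, the only one of the 7 genes with a window to hold an AP-1 match, and of Jpt1, the gene low with siRNA 2. They are printed 5′ to 3′ on the gene's strand. Capitals mark matches on either strand to GGGCGG (the GC box of Sp factors), CCAAT (the NF-Y box), TATAAA (the TATA box) and TGANTCA (the AP-1 site), and matches that overlap form 1 run.
Myd88, chr9:119339969-119340268, minus strand: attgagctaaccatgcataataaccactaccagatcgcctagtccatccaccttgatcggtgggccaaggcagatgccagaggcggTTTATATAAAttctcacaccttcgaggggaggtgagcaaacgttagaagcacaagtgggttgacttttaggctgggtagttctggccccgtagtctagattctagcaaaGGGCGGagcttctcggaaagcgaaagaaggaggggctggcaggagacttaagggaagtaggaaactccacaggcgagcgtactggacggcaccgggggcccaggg
Samm50, chr15:84191990-84192289, plus strand: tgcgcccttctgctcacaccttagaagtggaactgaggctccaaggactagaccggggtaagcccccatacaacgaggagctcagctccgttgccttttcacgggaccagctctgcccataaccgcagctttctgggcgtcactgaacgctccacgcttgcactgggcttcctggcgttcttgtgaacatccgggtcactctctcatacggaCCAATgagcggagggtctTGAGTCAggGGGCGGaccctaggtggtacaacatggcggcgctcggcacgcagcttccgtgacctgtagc
Arpc5, chr1:152766292-152766591, plus strand: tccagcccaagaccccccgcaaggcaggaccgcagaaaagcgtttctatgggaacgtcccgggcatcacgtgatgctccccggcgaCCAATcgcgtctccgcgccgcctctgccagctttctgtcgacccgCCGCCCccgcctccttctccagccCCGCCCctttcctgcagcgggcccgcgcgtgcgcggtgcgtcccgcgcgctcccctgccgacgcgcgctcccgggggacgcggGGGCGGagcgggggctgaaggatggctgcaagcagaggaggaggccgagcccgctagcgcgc
Jpt1, chr11:115514344-115514643, minus strand: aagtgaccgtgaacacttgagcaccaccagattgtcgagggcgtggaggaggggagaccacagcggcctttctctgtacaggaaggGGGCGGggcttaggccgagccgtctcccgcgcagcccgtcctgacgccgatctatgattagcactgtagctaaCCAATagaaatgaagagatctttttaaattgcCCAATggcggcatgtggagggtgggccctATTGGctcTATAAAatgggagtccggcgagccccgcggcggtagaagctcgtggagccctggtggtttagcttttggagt

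The 9 windows held between 53.3% and 80.3% G or C, beside a median of 52.7% over 32851 windows, and the lowest, those of Ppp6c at 53.3% and Myd88 at 54.0%, were close to that median. GGGCGG occurred in 8 of the 9 windows, against 35.7% of all, and the window without it was that of Ppp6c. Crip2 and Ube2q2 are counted with 2 windows each. The motif is itself made of G and C, in which most of these windows are rich, so nothing is read from this share. CCAAT occurred in 4 windows, against 37.4% of all, with 3 matches in Jpt1. TATAAA occurred in 2 windows, those of Myd88 and Jpt1, against 13.6% of all, and TGANTCA in that of Samm50 alone, against 7.81% of all. TCAAGGTCA, bound by the stem cell receptor Esrrb, was in none of the 9 windows and in 0.423% of all. TGACGTCA (the cyclic AMP response element, 1.79% of all) and CCGGAAG (an ETS site, 8.86% of all) were in none either. No motif divided Jpt1 from the genes low with siRNA 1, and letters in a window show neither a bound site nor a cause.

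Array medians lay between 7.77 and 7.84 and the median SD between arrays of a group was 0.10. The second siRNA 1 array had a narrower spread than the others, with an interquartile range of 3.13 against 3.33 to 3.45, and the lowest mean correlation with them (0.9938 against 0.9956 or higher). Without it, siRNA 1 minus siRNA 2 was -1.03 for Myd88, -0.78 for Ppp6c, -0.79 for Crip2, -0.82 for Samm50, -0.58 for Ube2q2, -0.98 for Arpc5, 0.78 for Jpt1 and -1.44 for Krt19. No gene of the 8 turned its direction, while the number called in siRNA 1 against control was 0 in place of 5. It was 0 as well without either siRNA 2 array or either control array, and 6 without the first siRNA 1 array.

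Marker genes of the cell types that such a culture could hold were compared on the same arrays. Mean levels of 8 markers of naive stem cells were 11.5 and 11.4 with siRNA 1, 11.5 and 11.4 with siRNA 2, and 12.0 and 11.8 in control cells, with Pou5f1 between 12.68 and 12.91 on all arrays. All 8 were lower in the mean of both siRNAs, and 2 of the 8 were called. Their median difference between the siRNAs was -0.031, with 0 called. Markers of trophoblast, which also expresses keratins, averaged 9.53 and 9.71 with siRNA 1, 9.36 and 9.60 with siRNA 2, and 9.38 and 9.48 in control cells. Markers of extraembryonic endoderm averaged 8.78 and 9.27 with siRNA 1, 8.75 and 9.0 with siRNA 2, and 8.60 and 8.96 in control cells. Both of these means were higher on replicate 2 in every group, but single trophoblast markers such as Eomes and Tfap2c were lower on replicate 2 in every group. Fibroblast markers averaged between 6.75 and 7.0 and macrophage markers between 6.54 and 6.83 over the arrays. Median differences, siRNA 1 minus siRNA 2, were 0.042 for trophoblast, 0.18 for endoderm, -0.012 for fibroblast and 0.10 for macrophage markers (all genes 0.026). Of 10 trophoblast markers 2 were lower with siRNA 1, and of 10 endoderm markers 1 was. The largest trophoblast differences were 0.47 (Cdx2), 0.44 (Hand1) and 0.335 (Gata3), with limma adjusted p-values of 0.557 or higher. Of the trophoblast, endoderm, fibroblast and macrophage markers 0 were called in any comparison without the block, and the part of such cells in the values of the 8 genes was not tested.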

How the data were processed

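RNA of transfected E14 cells was measured on 6 expression arrays. The authors deposited a table with 35556 probe sets. Values range from 2.69 to 14.6, and the log2 unit of the deposited values was inferred from this range. Per the submitters' processing notes Partek was used, and how background, summarization and normalization were handled is not given in the sources used here. There is no count or depth, and the number of arrays limits the precision.

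Symbols came from the platform's annotation table, in which 21789 probe sets had 1 symbol. The probe set of highest mean stood for a gene, which left 19938 genes. The members are the 8 genes whose symbol is exactly the given one. The genes and the lists were chosen with earlier results of these data known. Genes named are Ncoa3, the 8 genes, their paralogs and up to 4 genes of smallest p per pathway list. Also named are the 2 genes most like each member (mean level above the median gene, SD of at least 0.2 over the arrays). The 5 neighbours of the weakest member on each side of the ranking are named as well. Aurka is named only to describe its list. Some in the report were picked with their values in view: Acta2, Gm5662, Dsp, Krt17, Pou5f1, Eomes, Tfap2c, Cdx2, Hand1 and Gata3. So were the genes of the observations at the end.

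All groups were fitted at once in limma 3.58.1 (R 4.3.3, lmFit and eBayes, 3 residual and 3.84 prior degrees of freedom) with 1 coefficient per group and no filter. Tests were two-sided, and an adjusted p under 0.05 (Benjamini-Hochberg over 19938 genes) is a call. SE is limma's standard error. The fit was tested on simulated data. Deviations from group means of arrays with equal replicate numbers correlated at 0.464 (siRNA 1 and control), 0.407 (siRNA 2 and control) and 0.461 (siRNA 1 and siRNA 2), each above 0.1. Equal numbers were therefore treated as pairs in the block fit alone. Every SE, interval and p-value not named as from the block ignores the pairs. This pairing comes from the data and not from the labels, and with 2 arrays per group the check is weak. Alternatives were this block, other normalizations, variance moderations, filters and probe set rules, and leaving out each array. Promoter windows are RefSeq's, and the siRNA sequences were not used here.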

Additional observations from a re-analysis of the deposited data

Results flagged for a closer look

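For Myd88 and Arpc5 the siRNAs lay on opposite sides of both control arrays: every siRNA 1 array was below and every siRNA 2 array above the controls. siRNA 1 minus siRNA 2 was -1.004 for Myd88 and -1.08 for Arpc5. The difference was not tested, because it is what the genes were chosen by. Over all genes 502 (2.52%) had the siRNAs on opposite sides of both controls, in either order. The siRNA 2 arrays exceeded the controls by 0.14 for Myd88 and 0.11 for Arpc5, and both 95% intervals include 0 (-0.0463 to 0.318, and -0.133 to 0.361).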

How the results depend on the processing

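For the 8 genes, 504 values were recomputed. Those of the mean of both siRNAs were compared by direction and side of the threshold, the rest by size alone. By these rules 475 were the same and 7 passed the threshold in addition. A further 22 moved by more than the spread between replicates, and 0 reversed. Outside the mean, a change of side was not counted, nor was a change of sign in a value not called at first. Myd88 in siRNA 1 against control counted as the same, though limma's adjusted p was 0.0452 at first and 0.155 with only the groups compared. siRNA 2 minus control for Crip2 also counted as the same from -0.0664 to 0.0515. siRNA 1 minus siRNA 2 kept its direction for all 8 in every alternative run, from -1.51 to -1.06 for Krt19, from -0.658 to -0.575 for Ube2q2 and from 0.66 to 0.83 for Jpt1. Counts of called genes moved more, and the cause was not tested. The replicate block gave 68 calls in the mean of both siRNAs, 241 in siRNA 1 against control, 26 in siRNA 2 against control and 15 in siRNA 1 against siRNA 2. With only brighter genes they were 38, 85, 11 and 4 in that order, and with trend and robust moderation 71, 150, 17 and 23. Without moderation, 0 were called for both siRNAs and for siRNA 1, and also 0 when all probe sets were tested. For siRNA 1, cyclic loess gave 37, aligned medians 26 and only the groups compared 0. For siRNA 2, quantile normalization and cyclic loess gave 2 each, aligned medians 1 and only the groups compared 10. Between the siRNAs, aligned medians gave 1. With 1 array left out, the counts ran from 0 to 37 (both siRNAs), 0 to 437 (siRNA 1), 0 to 10 (siRNA 2) and 0 to 2 (siRNA 1 against siRNA 2). Of the 8 genes, the mean of both siRNAs called 1 with the block (Ppp6c), 1 with only brighter genes (Ube2q2), 4 with trend and robust moderation (Ppp6c, Crip2, Samm50 and Ube2q2), and 0 to 1 with an array left out (Ppp6c, without siRNA 1 replicate 1). For the mean of both siRNAs, fitting only the groups compared uses all arrays and is the fit reported. With 2 arrays per group and no detection calls used, small differences could not be resolved.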

Other observations

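Acta2, Cnn1, Acta1 and Myl9, whose proteins act in contractile actin fibres, stood near the 8 genes in the ranking of siRNA 1 minus siRNA 2, and they were picked with their values in view. Acta2, the smooth muscle actin, was 10.23 and 11.25 with siRNA 1, 11.92 and 12.54 with siRNA 2, and 11.75 and 12.16 in control cells. Replicate 2 was the higher array in each group, and both siRNA 1 arrays were below the other 4. Its difference between the siRNAs was -1.49 (SE 0.351, limma adjusted p = 0.481, and 0.0601 with the replicate block). Cnn1, a calponin that binds actin, differed by -1.07 (SE 0.249, block adjusted p = 0.0451), Acta1, the skeletal muscle actin, by -0.9988 (SE 0.266, block adjusted p = 0.0479), and Myl9, a myosin light chain, by -0.75 (SE 0.247, block adjusted p = 0.0479). By limma without the block none of these 4 passed. Their siRNA 2 levels exceeded the control means by 0.28 for Acta2, 0.42 for Cnn1, 0.29 for Acta1 and 0.18 for Myl9. Actc1, the cardiac muscle actin, at rank 29, differed by -0.70 (SE 0.184) between the siRNAs. Its siRNA 2 minus control went the other way, at -0.20.

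Fosl1, a subunit of the AP-1 transcription factor, was high with siRNA 1, at 9.70 and 9.75, against 9.03 and 9.06 with siRNA 2 and 8.86 and 9.11 in control cells. Both siRNA 1 arrays were above the other 4, and siRNA 1 minus siRNA 2 was 0.68 (SE 0.101, limma adjusted p = 0.296). Lefty2, a secreted inhibitor of Nodal signalling, was 8.73 and 8.15 with siRNA 1, 9.45 and 9.002 with siRNA 2, and 8.60 and 8.49 in control cells. The siRNA 2 arrays were above the other 4, and siRNA 1 minus siRNA 2 was -0.79 (SE 0.213, limma adjusted p = 0.573).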
